A study of Mus musculus with 2 samples.

Results

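In macrophages grown from mouse bone marrow, 3947 of 54365 distinct protein-coding transcript starts, 7.26%, lay in a gap between a pair of H3K4me3 peaks, with a peak on either side of the start. They fell into 2237 gaps and belonged to 2304 of 21888 protein-coding genes, 10.5%, and to 23.7% of the 9707 genes that had either such a start or a start inside a peak. A start was called split when it lay in no peak of the list that the authors replicated across both libraries, while 1 peak ended within 500 bp on one side and another began within 500 bp on the other. The members were thus chosen by the authors' measured peak positions, so the gap itself is a description and not a finding. Of the remaining coding starts, 18335 lay inside a replicated peak and are called covered here, 3521 had a peak within 500 bp on 1 side, and 28562 had none. Starts are GENCODE release M21 positions on mm10, and starts that share a position and strand were counted once.

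The study mapped H3K4me3 by chromatin immunoprecipitation and sequencing in a single group, primary macrophages differentiated from bone marrow of C57BL/6J mice, with no stimulation. There were 2 biological replicates, each started from 10 ng of DNA. Both carry the same donor entry and a separate cell preparation, their age and sex are not recorded, and the labels do not say whether separate animals were used. The spread between them may therefore be technical. The replicates' own lists held 20031 peaks in replicate 1 and 16376 in replicate 2, and the replicated list held 16957. Depth is unknown, as the lists carry no read counts. Of 30 genes of the macrophage lineage, 29 had a replicated peak within 1000 bp of a coding start. That count was 5 of 20 for lymphoid cells, 1 of 18 for neutrophils and mast cells, 4 of 14 for dendritic cells, 3 of 16 for fibroblasts and endothelium and 2 of 25 for other organs.

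H3K4me3 is the trimethylated form of lysine 4 of histone H3. It marks nucleosomes around the starts of active genes and of many genes that lie in CpG islands, where CFP1 and MLL proteins of the methyltransferase complexes bind unmethylated CpG through CXXC domains. The mark is carried by the histone and not by the DNA, so it is mapped only where DNA is wrapped in a nucleosome. Active starts often hold a stretch that is short of nucleosomes, with the best placed nucleosome just downstream. Nucleosome positions were not measured here.

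The gaps are stretches of sequence, and 6 of the short ones are shown whole so that the bases between a pair of peaks can be read. They are 6 of the 8 gaps with the highest mean fold of the flanking peaks, picked after their values were seen, among gaps of at most 150 bp that hold starts of 1 gene on 1 strand, were present in both replicates' own lists and ended within 30 bp downstream of the start. Bases of the gap are in capitals. Bases that belong to the upstream peak, at the left end, or to the downstream peak, at the right end, are in lower case. Each run is written 5′ to 3′ on the strand of the gene, from the GRCm38.p6 (mm10) genome, and its last 30 bases begin at the transcript start. Nabp2 encodes a single-stranded DNA-binding protein of DNA repair (chr10:128409845-128409994, minus strand). Harbi1 derives from a transposase (chr2:91710754-91710881, plus strand). Smyd4 encodes a protein with a SET domain (chr11:75348379-75348462, plus strand). Atp6v0d1 encodes a subunit of the proton pump that acidifies lysosomes (chr8:105566018-105566148, minus strand). Rtf1 encodes a transcription elongation factor that acts with the PAF complex (chr2:119674969-119675097, plus strand). Hdac1 encodes a histone deacetylase (chr4:129542684-129542851, minus strand).
Nabp2: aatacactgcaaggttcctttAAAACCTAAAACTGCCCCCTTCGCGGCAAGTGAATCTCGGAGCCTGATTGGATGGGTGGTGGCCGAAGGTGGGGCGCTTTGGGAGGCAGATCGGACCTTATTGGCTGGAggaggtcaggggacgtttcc
Harbi1: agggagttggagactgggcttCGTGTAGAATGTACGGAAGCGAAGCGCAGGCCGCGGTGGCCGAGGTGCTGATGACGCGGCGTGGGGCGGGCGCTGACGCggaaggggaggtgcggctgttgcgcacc
Smyd4: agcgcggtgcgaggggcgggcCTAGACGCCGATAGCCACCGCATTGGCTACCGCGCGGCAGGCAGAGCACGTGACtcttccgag
Atp6v0d1: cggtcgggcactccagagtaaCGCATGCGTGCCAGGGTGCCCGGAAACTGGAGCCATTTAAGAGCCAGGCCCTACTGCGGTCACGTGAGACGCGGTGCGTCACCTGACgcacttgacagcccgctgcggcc
Rtf1: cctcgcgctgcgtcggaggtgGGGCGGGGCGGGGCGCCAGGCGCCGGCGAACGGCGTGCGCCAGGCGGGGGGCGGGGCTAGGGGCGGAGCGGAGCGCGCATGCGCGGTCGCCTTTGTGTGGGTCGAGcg
Hdac1: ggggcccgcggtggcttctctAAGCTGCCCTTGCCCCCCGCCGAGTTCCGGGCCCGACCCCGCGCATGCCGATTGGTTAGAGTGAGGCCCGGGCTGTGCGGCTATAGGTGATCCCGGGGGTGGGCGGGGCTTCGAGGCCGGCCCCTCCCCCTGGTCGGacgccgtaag

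The gap of Smyd4 is 54 bp long and holds 7 CpG, that of Harbi1 is 79 bp with 13, that of Atp6v0d1 is 87 bp with 8, that of Rtf1 is 106 bp with 19, that of Nabp2 is 109 bp with 6 and that of Hdac1 is 137 bp with 14. GC content of these gaps was lowest at Nabp2, with 57.8%, and highest at Rtf1, with 82.1%. On either strand, the printed bases contain the GC box GGGCGG at Harbi1, Smyd4, Rtf1 and Hdac1, the CCAAT box at Nabp2, Smyd4 and Hdac1, the NRF1 motif GCGCATGC at Rtf1 and Hdac1, and the E-box CACGTG at Smyd4 and Atp6v0d1. None of the 6 contains TATAAA.

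Gaps at split starts were short next to the peaks around them. Their median length was 295 bp, with quartiles of 182 and 447 bp and a range from 51 to 953 bp. There were 386 gaps of 51 to 150 bp (17.3%), 753 of 151 to 300 bp (33.7%), 672 of 301 to 500 bp and 426 of 501 to 999 bp (19.0%). In every list the closest neighbouring peaks were 51 bp apart, so shorter gaps do not occur in these lists. The upper end is set by the distance of 500 bp to each flank. Of the 3964 gaps of at most 1000 bp between neighbouring replicated peaks, 2237 (56.4%) held a split start, 178 held only coding starts more than 500 bp from a flank and 1549 held no coding start. The median length was 295 bp for gaps with a split start and 169 bp for gaps with no coding start (quartiles 103 and 287 bp). It was 162 bp for the 1336 gaps with no annotated start of any kind. These lengths are a description, since a longer gap is more likely to hold a start by its length alone.

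**Figure D1:**
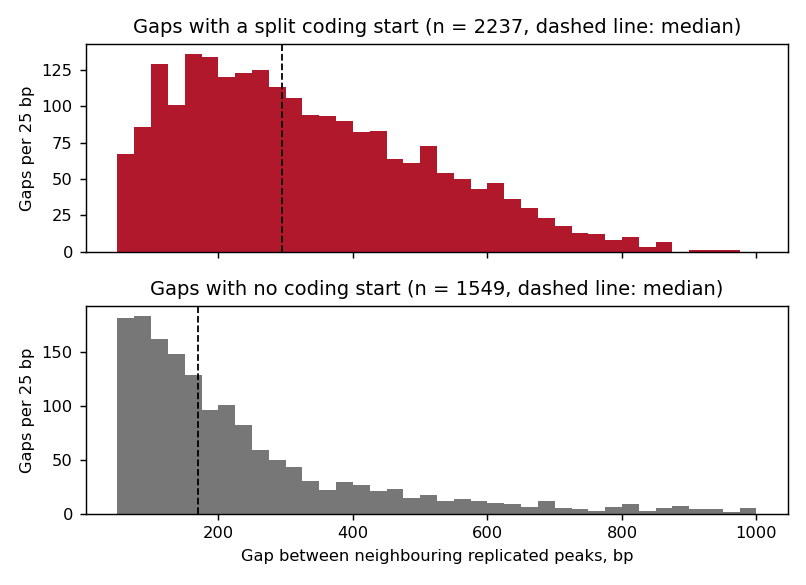
Number of gaps of at most 1000 bp between neighbouring replicated peaks per 25 bp of gap length, for gaps that hold a split coding start (upper panel) and gaps that hold no coding start (lower panel), with the median as a dashed line. The 2237 gaps with a split start have a median of 295 bp, and the 1549 gaps with no coding start have a median of 169 bp and are most frequent near the minimum of 51 bp.

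The 4 longest gaps were at Rev1, which encodes a DNA polymerase that copies past damage, with 953 bp, Chd9, a chromatin remodeller, with 935 bp, Rasa1, an inhibitor of Ras, with 916 bp, and Desi2 with 871 bp. Atp6v0a1, Ssr4 and Zkscan6 had gaps of 51 bp and Arfrp1 one of 53 bp. Atp6v0a1 encodes another part of the lysosomal proton pump, Ssr4 a part of the translocon of the endoplasmic reticulum, and Arfrp1 a small GTPase of the Golgi. In the own list of replicate 1, the starts of all 4 of these shortest gaps lay inside a peak, and in that of replicate 2 all 4 gaps were present, with 122, 147, 213 and 149 bp in the order named.

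Most gaps held starts of 1 direction. In 2035 gaps (91.0%), called unidirectional here, every annotated start was on the same strand, and the median gap was 286 bp. In 125 gaps (5.59%) the coding starts were on 1 strand and another annotated start, such as that of a noncoding RNA, was on the opposite strand, with a median gap of 468 bp. In 77 gaps (3.44%) coding starts of both strands lay in the same gap, with a median of 322 bp. A gap held 1 coding start in 1243 cases, 2 to 5 in 961 and over 5 in 33. The largest number was 15, in the gap shared by Pigp and Ttc3.

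The starts lay near the middle of their gaps, slightly nearer to the upstream peak. The median distance was 154 bp to the downstream flank (quartiles 67.0 and 274 bp) and 133 bp to the upstream flank (quartiles 71.0 and 219 bp). The downstream flank was the nearer one for 1783 starts (45.2%). In gaps with coding starts of both strands the share was 61.0% of 269 starts, against 44.1% of the 3443 starts of unidirectional gaps. The downstream flank began within exon 1 of the start's transcript for 2475 starts (62.7%) and within intron 1 for 1471 (37.3%). The median length of that exon was 195 bp. At 580 bp downstream of the starts of unidirectional gaps, 98.6% of them were covered by a replicated peak, and at 420 bp upstream 96.5% were. The rule fixes these shares in part, since it demands a peak within 500 bp on either side. At 20 bp upstream the share was 5.46% in the replicated list, 15.8% in the list of replicate 1 and 0.407% in the list of replicate 2. Covered starts had 89.3% at 580 bp downstream and 73.0% at 420 bp upstream. They showed no dip, with 97.3% at 20 bp upstream, which their choice fixes in part.

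**Figure D2:**
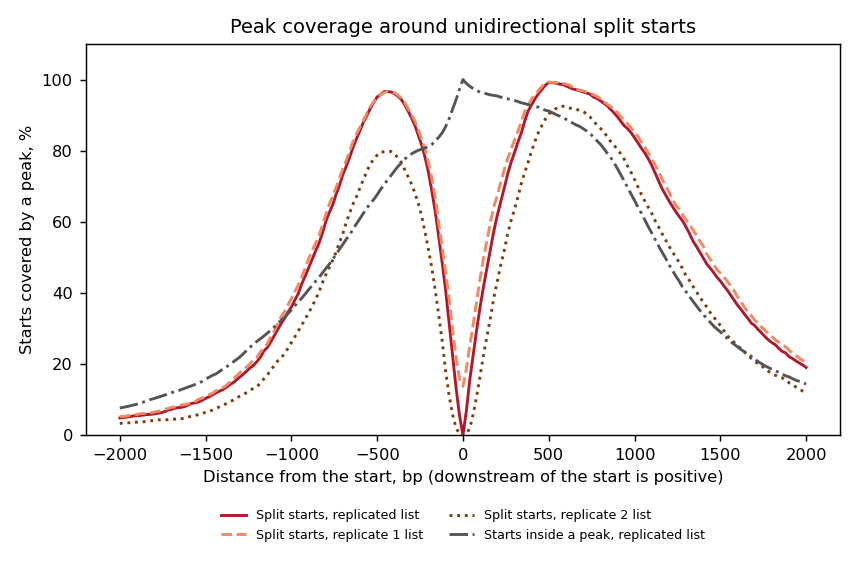
Percent of starts covered by a peak at each distance from the start, in bp along the direction of the gene, for the 3443 split starts of unidirectional gaps in the replicated list and in each replicate's own list, and for the 18335 covered starts in the replicated list. Coverage of split starts is 98.6% at 580 bp downstream and 96.5% at 420 bp upstream in the replicated list, with a trough at the start that the choice of members fixes in that list. The high coverage on either side is fixed in part by the same choice.

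The flanks differed in strength and width. Each peak carries the authors' own fold, a linear ratio whose denominator the lists do not state, so it is used only between peaks of 1 list. In the replicated list, the 2035 unidirectional gaps had a median fold of 24.0 in the downstream flank and 12.6 in the upstream flank, and median widths of 1207 bp downstream and 724 bp upstream. The median log2 ratio of downstream to upstream fold was 0.76, with quartiles of 0.05 and 1.45, and the downstream flank had the higher fold in 1554 gaps (76.4%) and was the wider one in 1654 (81.3%). A downstream lean is not particular to split starts. Of covered starts, 66.0% had a replicated peak at 1000 bp downstream and 35.2% at 1000 bp upstream. The shares were 83.6% and 36.1% for the split starts of unidirectional gaps.

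Each replicate's own list gave similar ratios where it held the gap. In replicate 1 (1767 unidirectional gaps), median folds were 34.8 downstream and 19.1 upstream, the median log2 ratio was 0.72 and the downstream fold was higher in 76.2%. In replicate 2 (1601 gaps), median folds were 13.7 downstream and 7.83 upstream, the median log2 ratio was 0.70 and the downstream fold was higher in 75.6%. Over the replicates the median log2 ratio averaged 0.71 ± 0.01 and the share with a higher downstream fold 75.9% ± 0.424 (SD, n = 2). In gaps of 51 to 150 bp the mean over replicates was 0.74 ± 0.04, and in gaps over 300 bp it was 0.67 ± 0.03 (SD, n = 2). Both replicates were read here only at starts split in the replicated list, so these SDs leave out the spread of that choice. With the rule applied to each own list alone, the median log2 ratio was 0.87 in replicate 1 and 0.69 in replicate 2 (SD 0.125). No test is made across gaps, which are not samples.

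The difference between the flanks went with what was annotated in the upstream flank. At 353 unidirectional gaps the upstream peak held an annotated start of the other strand, so that the peak also lies at the start of a divergent transcript. There the median folds were 24.7 downstream and 22.6 upstream, the median log2 ratio was 0.07 and the downstream flank had the higher fold in 53.3%. At 1367 gaps the upstream peak held no annotated start, with median folds of 24.1 downstream and 11.1 upstream, a median log2 ratio of 0.99 and a higher downstream fold in 82.6%. Over the replicates' own lists the median log2 ratio averaged 0.10 ± 0.01 at gaps with a start of the other strand in the upstream peak and 0.90 ± 0.04 at gaps with none (SD, n = 2). These SDs, too, are over starts chosen in the replicated list. The medians of these 2 kinds of gap thus lay closer together downstream than upstream. In the 77 gaps with coding starts of both strands, the median absolute log2 ratio of the flanks was 0.55, against 0.93 in unidirectional gaps.

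**Figure D3:**
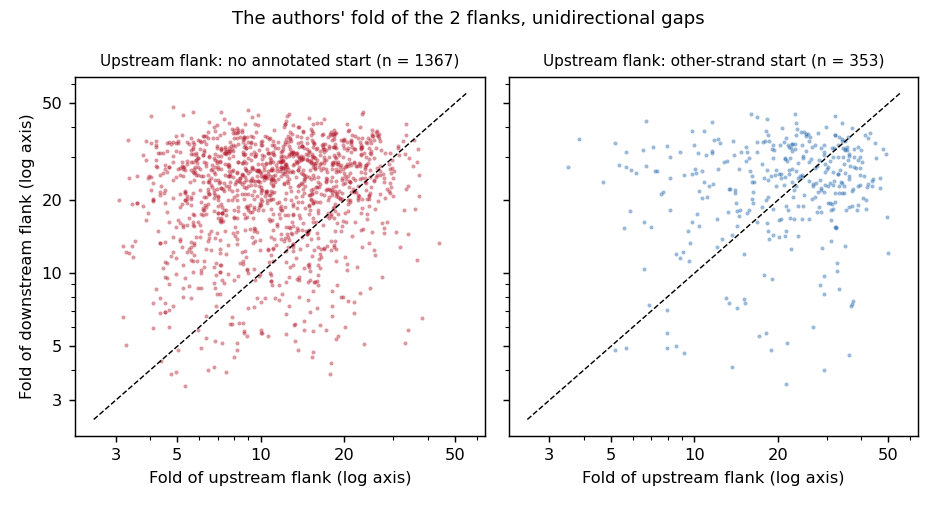
The authors' fold of the downstream flank (vertical, log axis) against that of the upstream flank (horizontal, log axis) at unidirectional gaps in the replicated list, 1 point a gap, for gaps whose upstream peak holds no annotated start (left) and gaps whose upstream peak holds a start of the other strand (right); the dashed line marks equal folds. Of 1367 gaps on the left 82.6% lie above the line, and of 353 on the right 53.3% do.

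The most unequal gaps were at genes with a tall downstream peak next to a peak close to the lower end of the list. Prkcd encodes protein kinase C delta, and its flanks had folds of 44.3 downstream and 4.01 upstream (log2 ratio 3.46). Cyb5r4, a reductase, had 35.5 downstream and 3.33 upstream, and Por, the electron donor of cytochrome P450 enzymes, had 48.2 downstream and 4.85 upstream. In the own list of replicate 1 all 3 gaps were present, and in that of replicate 2 no upstream peak lay within 500 bp at all 3. The reverse order was seen at Pmel, a melanosome protein, with 4.60 downstream and 35.9 upstream (log2 ratio -2.97), and at Ptk2, focal adhesion kinase, with 4.01 downstream and 29.2 upstream. Replicate 2 had no downstream peak within 500 bp at Pmel and Ptk2. In replicate 1 the gap was present at Ptk2, while the start of Pmel lay inside a peak, so the gap of Pmel was in neither own list.

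Peaks next to a split start were narrower than other peaks at coding starts, given here as a description, since a gap divides them. The 4458 flanking peaks, 26.3% of the replicated list, had a median fold of 18.5 and a median width of 960 bp, against 25.2 and 1660 bp for the 6962 peaks that held a coding start and flanked no split one. The list as a whole had a median fold of 18.3 and a median width of 1158 bp. From the outer edge of 1 flank to the outer edge of the other, the median distance was 2376 bp (quartiles 1945 and 2910 bp). Of the flanking peaks, 1222 also held another coding start.

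The 6 genes with the highest mean fold of both flanks had strong peaks on either side in both replicates. 0610012G03Rik and Ncbp2, which encodes the small subunit of the cap-binding complex, start in opposite directions in the same gap of 223 bp on chromosome 16 (mm10 31948307 to 31948529), with folds of 41.4 and 43.7 in the flanks. This gap measured 157 bp in replicate 1, with folds of 55.9 and 61.8, and 268 bp in replicate 2, with folds of 25.7 and 24.9. Npc2 encodes the soluble cholesterol carrier of the lysosome. Its gap of 245 bp on chromosome 12 (84772948 to 84773192) had folds of 37.9 downstream and 42.9 upstream, which in the own lists were 53.2 downstream and 60.2 upstream in replicate 1 and 23.1 downstream and 25.6 upstream in replicate 2. Bag1, a co-chaperone, had a gap of 271 bp with folds of 32.4 downstream and 47.9 upstream, and Spsb3 a gap of 289 bp with 31.1 downstream and 49.0 upstream. Nabp2, whose gap is printed above, had folds of 34.5 downstream and 44.6 upstream. Its gap of 109 bp was 108 bp in replicate 1 and 381 bp in replicate 2, the largest difference among these genes. At Npc2, Bag1, Spsb3 and Nabp2 the upstream flank had the higher fold, whereas at 76.4% of the unidirectional gaps the downstream one did. Ranking by the mean of both folds favours gaps with a strong upstream flank, so the choice of these genes fixes this contrast in part.

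The replicates' own lists were compared next, although both libraries went into the replicated list and so are not independent of the choice. Applied to all coding starts, the same rule found 4378 starts (8.05%) in the list of replicate 1 and 4709 (8.66%) in that of replicate 2. Of the 3947 split starts, 3395 were split in the own list of replicate 1 (86.0%, Wilson 95% interval 84.9 to 87.1) and 3085 in that of replicate 2 (78.2%, 76.8 to 79.4). Both own lists showed the gap at 2660 starts (67.4%). The intervals cover counting error only and take starts as independent, which starts of the same gap are not. In the authors' list from pooled alignments 3905 (98.9%) were split, and 16890 of the replicated peaks had the same ends as a pooled peak.

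Where a replicate lacked the gap, it lacked it in its own way. In replicate 1, 539 of the split starts (13.7%) lay inside a peak and 13 had a peak on 1 side. In replicate 2, 0 of 3947 lay inside a peak, which allows a share of up to 0.0760% by a limit of 3 counts of the total and up to 0.0972% by the Wilson interval, while 800 (20.3%) had a peak on 1 side and 62 (1.57%) had none within 500 bp. The starts inside a peak of replicate 1 had short gaps in the replicated list, with a median of 190 bp, against 322 bp for those split in replicate 1. By gap length, the share inside a peak of replicate 1 was 35.6% for 51 to 150 bp, 11.4% for 151 to 300 bp, 6.71% for 301 to 500 bp and 12.9% for 501 to 999 bp. The share with a peak on 1 side in replicate 2 was 13.2%, 16.8%, 19.4% and 33.4% over the same 4 ranges.

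**Figure D4:**
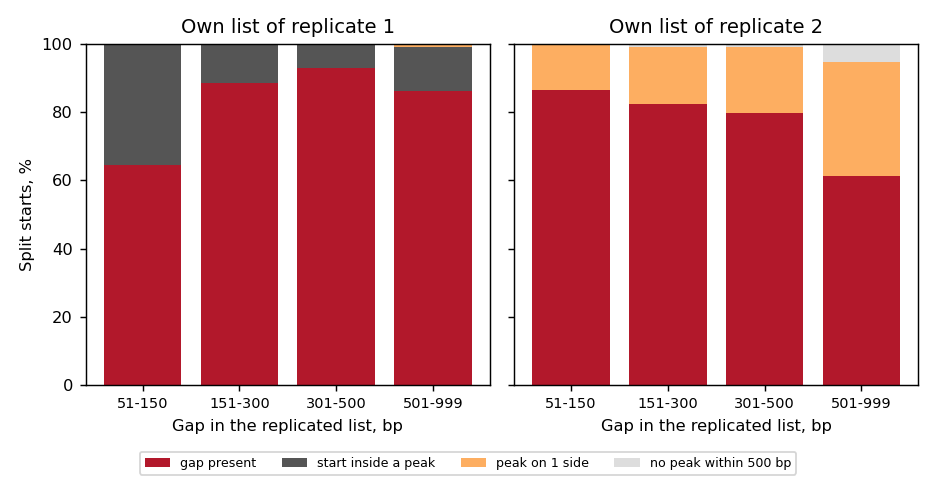
State of the 3947 split starts in the own list of replicate 1 (left) and of replicate 2 (right), as stacked percentages for 4 ranges of gap length in the replicated list: gap present, start inside a peak, a peak within 500 bp on 1 side, or none. Starts inside a peak make up 35.6% of the shortest gaps in replicate 1 and are absent in replicate 2, where a peak on 1 side makes up 33.4% of the longest gaps.

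At the 800 starts with a peak on 1 side in replicate 2, the flank that was missing had a median fold of 6.27 in the replicated list and the flank that was kept had one of 19.1. The downstream flank was the one kept in 510 (63.7%), and at 251 the missing flank was still overlapped by a peak of replicate 2. Gaps present in both own lists numbered 1537, and their median length was 411 bp in replicate 2 and 267 bp in replicate 1 (mean of both medians 339 ± 102 bp, SD, n = 2). The gap was longer in replicate 2 at 1524 of them (99.2%), with a median ratio of 1.42. Across these gaps, which share the annotation and the pooled alignments, Spearman's rho of the lengths was 0.852, given as a description. Replicate 2 also had gaps elsewhere, as 1623 starts split in its own list lay inside a replicated peak, against 63 starts split in replicate 1. Replicate 2 had fewer peaks than replicate 1, 16376 against 20031, and the part of this in its longer gaps was not tested.

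Split starts lay in sequence rich in G, C and CpG. The CpG ratio is the number of CpG observed over that expected from the C and G content, and was taken over 1000 bp on either side of each start. Its median was 0.746 at split starts (quartiles 0.663 and 0.825), against 0.596 at covered starts (0.479 and 0.700), 0.647 at starts with a peak on 1 side, 0.236 at starts with no peak and 0.452 over all coding starts. All coding starts were put into 3 groups of equal size by this ratio. Of the split starts, 3506 were in the highest group (19.3% of it), 441 in the middle (2.43%) and 0 in the lowest. There a count of 0 of 18122 allows up to 0.0166%, if starts are taken as independent, which starts of the same gap are not. Covered starts also became more frequent, from 1040 (5.74%) in the lowest group to 44.6% in the middle and 50.8% in the highest. Among split or covered starts alone, the split share was 0% in the lowest group, 5.17% in the middle and 27.6% in the highest.

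GC content within 250 bp set split and covered starts further apart. Its median was 71.9% at split starts (quartiles 68.7 and 74.9%) and 60.9% at covered starts (56.1 and 65.1%). With split and covered starts ranked together by GC content and put into 5 groups of nearly equal size, the split share was 0.306%, 1.12%, 4.79%, 18.4% and 66.0% from the lowest group (30.1 to 55.9% GC) to the highest (69.3 to 85.6% GC). In the highest group 2844 of 4311 starts were split. The gap was also richer in GC than the peaks beside it. Over the unidirectional gaps the median was 75.7% GC in the gap, 68.0% in the 300 bp of the downstream flank next to it and 59.3% in those of the upstream flank, and the gap was above both flanks in 1746 gaps (85.8%). The median CpG ratio was 0.977 in the gap, 0.827 in the downstream flank and 0.728 in the upstream flank. GC content rose towards the start at covered starts too, with medians of 60.9% within 250 bp and 52.7% within 1000 bp. At split starts these medians were 71.9% and 58.0%. Sequence at covered starts was not compared with its flanks in the same way. Over 50% of the bases were marked as repeats in 3 gaps, and 1176 of the 2237 gaps (52.6%) held no such base. No read counts or input signal were used, and the part of base composition in the gap was not tested.

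**Figure D5:**
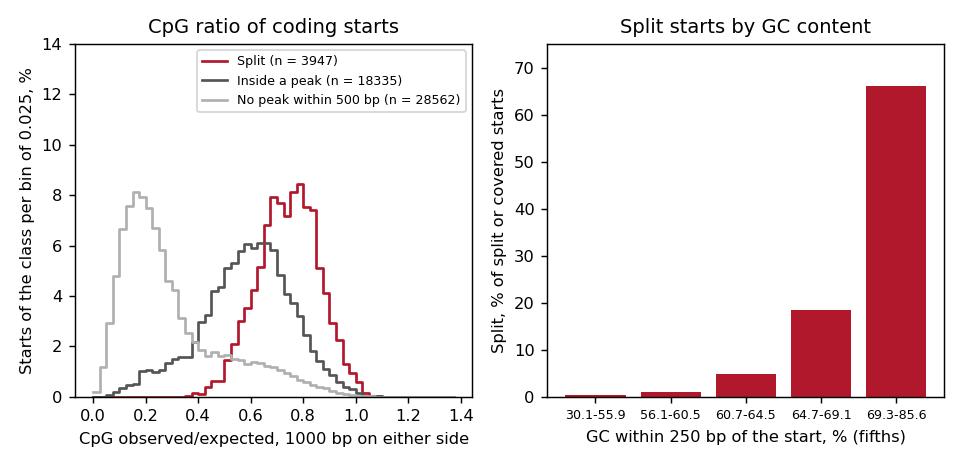
Left, distribution of the CpG observed/expected ratio over 1000 bp on either side of split starts, covered starts and starts with no peak within 500 bp, as a percentage of each class per bin of 0.025. Right, percent split among split and covered starts in 5 groups of rising GC content within 250 bp (bars from 0), which runs from 0.306% in the lowest group to 66.0% in the highest.

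Short motifs of promoters were counted from 250 bp before to 50 bp after each start, on either strand. No motif holds another whole, matches of different motifs may overlap, and a match says nothing of binding. The GC box GGGCGG, a site of the SP and KLF families, was found at 89.6% of split starts, 59.5% of covered starts and 43.1% of all coding starts. The TATA box letters TATAAA were found at 2.79% of split starts, 6.13% of covered starts and 11.3% of all. The share was 32.7%, 37.8% and 35.9% for CCAAT, in the same order, 29.9%, 32.6% and 17.6% for the ETS core CCGGAA, and 21.1%, 28.2% and 27.3% for GAGGAA, the core of PU.1, the ETS factor that sets up the macrophage lineage. GCGCATGC, bound by NRF1, was found at 7.88% of split starts, 5.14% of covered starts and 3.24% of all, and CACGTG, bound by MITF, TFE3 and MYC among others, at 12.5%, 9.76% and 7.43%. The cyclic AMP response element TGACGTCA (2.81%, 3.46% and 2.05%) and the YY1 core AAGATGGC (5.32%, 5.68% and 3.29%) were rare in all 3.

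Within the highest of the 5 GC groups, several of these differences were smaller or turned round. The GC box was found at 93.0% of split starts and 87.3% of covered starts there, and TATAAA at 1.79% of split starts and 1.23% of covered starts. CCAAT was found at 27.8% of split and 21.1% of covered starts in this group, the other way round from the comparison over all starts. The ETS core was found at 28.1% of split and 26.9% of covered starts, GAGGAA at 19.6% of split and 21.9% of covered starts, and CACGTG at 12.6% of split and 9.61% of covered starts.

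Genes with split starts came from many functional groups. Shares below are of genes that had a split or a covered start, to be read against 23.7% over all genes, and describe genes, not samples. Of 27 genes of inflammatory signalling, 7 had a split start (25.9%). They were Nfkb1 and Rela, which form the NF-kappaB dimer, Chuk and Tbk1, kinases of that pathway and of interferon induction, Irf5, a transcription factor downstream of Toll-like receptors, and Jak2 and Stat3, which relay cytokine signals. Rela had a gap of 476 bp with folds of 30.3 downstream and 12.0 upstream. In the own lists the folds of Rela were 43.0 downstream and 19.4 upstream in replicate 1, and 17.8 downstream and 6.53 upstream in replicate 2. Stat3 had folds of 36.2 downstream and 6.70 upstream at a gap of 260 bp, and Irf5 had 37.2 downstream and 15.1 upstream at a gap of 329 bp. Tbk1 had 35.5 downstream and 19.9 upstream at 286 bp, Chuk had 31.1 downstream and 14.5 upstream at 120 bp, and Nfkb1 had 22.2 downstream and 7.30 upstream at 453 bp. The gap was present in both own lists at 5 of the 7 genes. The start of Chuk lay inside a peak in replicate 1, and Nfkb1 had no downstream peak within 500 bp in replicate 2. Jak2 had near-equal flanks, 23.7 downstream and 23.8 upstream, at a gap of 701 bp. In 6 of the 7 (85.7%) the downstream flank was the stronger one, with a median log2 ratio of 1.30, against 74.4% and 0.68 over the 2303 gene symbols with a split start, 1 gap a gene.

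Of 25 interferon-stimulated genes none had a split start, which allows a share of up to 12.0%. That limit takes genes as independent draws, which members of a chosen list are not, so it is no test of the share. Ifit1, Isg15, Rsad2, Mx1 and Bst2 are among these genes, and each has a start inside a replicated peak. Median GC content within 250 bp of the list's 42 split or covered starts was 52.2%, against 62.5% over all 22282, and 0 of the 42 lay in the highest GC group. The inflammatory signalling list had a median of 62.3% GC, with 13 of 77 starts in the highest GC group, 8 of which were split. Of 11 genes of inflammatory effectors (cytokines, chemokines and induced enzymes and inhibitors) with a split or covered start, only Tnfaip3 had a split one (9.09%). Tnfaip3 encodes the ubiquitin-editing enzyme A20 that restrains NF-kappaB, and its gap was 255 bp with folds of 28.6 downstream and 11.9 upstream. The most 5′ coding start of Tnfaip3 was not split, and the gene had a covered start as well.

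Of 26 genes of the macrophage lineage, 3 had a split start (11.5%), and the list's median GC content was 51.3%. In the highest GC group 2 of the list's 8 starts were split, a small count, against 66.0% of all starts there. Runx1, a regulator of blood stem cells and myeloid genes, had a gap of 281 bp with 12.6 downstream and 11.1 upstream. Sirpa, the receptor for the signal CD47, had a gap of 548 bp between weak peaks of 4.34 downstream and 4.38 upstream. In replicate 1 that start of Sirpa lay inside a peak, and in replicate 2 no peak lay within 500 bp. Runx1 and Sirpa had covered starts as well. Most of the list, such as Csf1r, Spi1, Adgre1, Cd68, Itgam and Lyz2, had covered starts and no split start.

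Of 21 immediate early genes, 5 had a split start (23.8%). Atf3, a stress-induced repressor, had a gap of 288 bp with folds of 37.6 downstream and 13.0 upstream. Klf6 had a gap of 338 bp with 30.7 downstream and 13.5 upstream, Dusp1, a phosphatase of MAP kinases, one of 708 bp with 25.8 downstream and 9.02 upstream, and Jund one of 424 bp with 9.36 downstream and 7.27 upstream. Klf4 had the stronger flank upstream, with 12.8 downstream and 23.2 upstream, at a gap of 636 bp. The gap was present in both own lists at Atf3, Klf6 and Jund. The start of Dusp1 lay inside a peak in replicate 1, and Klf4 had no upstream peak within 500 bp in replicate 2.

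Of 27 lysosomal genes, 8 had a split start (29.6%), and their gaps were short, with a median of 99.0 bp against 297 bp over all genes with a split start. Their median folds were 35.5 downstream and 9.61 upstream. Psap, the precursor of the saposins that help to degrade sphingolipids, had a gap of 58 bp between a downstream peak of 10369 bp with a fold of 36.1 and an upstream peak of 610 bp with a fold of 8.02. The protease genes Ctsz and Ctsb had gaps of 71 and 74 bp. Ctsz had 34.9 downstream and 5.01 upstream, and Ctsb had 42.0 downstream and 6.52 upstream. Replicate 2 had no upstream peak within 500 bp at Psap, Ctsz and Ctsb. In replicate 1 the gap was present at Ctsz and Ctsb, while the start of Psap lay inside a peak, so the gap of Psap was in neither own list. Atp6v0d1, printed above, had 39.7 downstream and 20.7 upstream. Tfe3, which activates lysosomal genes, had 25.2 downstream and 7.69 upstream at 111 bp, and the channel gene Mcoln1 had 29.0 downstream and 19.5 upstream at 116 bp. Npc1, the membrane partner of Npc2, had 30.6 downstream and 11.2 upstream at 269 bp. Npc2 was the only one of the 8 with the stronger flank upstream. The list's median GC content was 61.7%, with 2 of 60 starts in the highest GC group.

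Of 17 housekeeping genes, 4 had a split start (23.5%), and the gap was present in both own lists at each. Actb, cytoplasmic actin, had a gap of 347 bp with folds of 30.7 downstream and 24.6 upstream, and Eef1a1, the factor that brings aminoacyl-tRNA to the ribosome, one of 295 bp with 23.5 downstream and 29.3 upstream. The tubulin gene Tuba1b had 33.7 downstream and 24.4 upstream at 105 bp. Lists of other cells had few genes with a split or covered start. The split ones were Mbp, 1 of 1 for other organs, and Tcf4, 1 of 3 for dendritic cells, with 0 of 4 for lymphoid cells, 0 of 1 for neutrophils and mast cells and 0 of 2 for fibroblasts and endothelium, counts too small to set against 23.7%. Mbp and Tcf4 are also expressed outside the cells that the lists stand for. Mbp, which encodes myelin basic protein and also a longer transcript outside glia, had 32.6 downstream and 5.68 upstream, and Tcf4 had 16.6 downstream and 16.4 upstream. The most 5′ coding start of Tcf4 was not split.

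Among gene families taken by symbol, the share was highest for ubiquitin ligases and proteases, at 70 of 182 (38.5%), replication-dependent histones, at 11 of 31 (35.5%), and Rab and Arf GTPases of vesicle traffic, at 21 of 62 (33.9%). It was lowest for proteasome subunits, at 1 of 41 (Psmd3, 2.44%), and mitochondrial ribosomal proteins, at 3 of 75 (Mrpl45, Mrps16 and Mrps7, 4.00%). Oxidative phosphorylation subunits had 9 of 76 (11.8%), Zfp zinc finger genes 40 of 295 (13.6%), tRNA synthetases 5 of 34 (14.7%), mediator and general transcription factors 11 of 69 (15.9%), ribosomal proteins of the cytoplasm 14 of 72 (19.4%), splicing factors 14 of 59 (23.7%), solute carriers 41 of 159 (25.8%) and translation initiation factors 13 of 45 (28.9%). With only the most 5′ coding start of each gene, the order changed, and the share was 35.5% for replication-dependent histones (11 of 31), 27.8% for ubiquitin ligases and proteases (42 of 151) and 31.5% for Rab and Arf GTPases (17 of 54), against 20.0% over all genes. Median GC content was 65.7% for ubiquitin ligases and proteases and 64.3% for Rab and Arf GTPases, against 60.7% for proteasome subunits and 58.3% for mitochondrial ribosomal proteins. In the highest GC group 66.0% of all starts were split, 77.1% of 144 for ubiquitin ligases and proteases and 56.8% of 37 for Rab and Arf GTPases. No test of these shares was made, and the part of base composition in them was not tested.

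At the 14 ribosomal protein genes with a split start, the downstream flank had the higher fold in all 14, with medians of 31.8 downstream and 11.5 upstream, against 1713 of 2303 (74.4%) over all genes with a split start. The histone genes had weak flanks instead, with medians of 7.94 downstream and 5.68 upstream, and the gap was present in both own lists at 2 of 11, against 65.8% over all genes. The median GC content of the histone list was 53.4%, and 0 of its 32 starts lay in the highest GC group. Histone genes are near-identical copies of each other, and how the authors placed reads that match several copies is not stated, so these values are uncertain.

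A split start was often not the only start of its gene. Of the 2304 genes, 1012 also had a coding start inside a replicated peak and 1292 had none, and in 816 every coding start was split. The most 5′ coding start was the split one in 1729 genes. Of the list genes named above, Runx1, Sirpa, Nfkb1, Rela, Irf5, Stat3, Jak2 and Tnfaip3 also had a covered start. So did Klf4, Dusp1, Psap, Mcoln1, Tfe3, Actb, Eef1a1 and Tcf4. At the edge of the rule, Shld2 and Zfhx3 each had a start exactly 500 bp from the farther flank, in gaps of 596 and 560 bp. Map3k3 and Rnf217 had a start 501 bp from the farther flank, in gaps of 949 and 918 bp, and do not count as split there.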

How the data were processed

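H3K4me3 ChIP-seq peak lists of 2 replicates of unstimulated bone marrow-derived macrophages were used. According to the deposited provenance texts, the authors derived 1 pseudoreplicated list from each replicate's alignments, 1 from both together (pooled) and a replicated list, on mm10. Each deposited peak carries the authors' fold (a ratio), −log10 p and −log10 q. Which aligner and caller were used, with which settings, is not given in the sources used here. No read counts were used, so depth is unknown and precision is limited to counting error.

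Coding starts are those of GENCODE M21 (21 chromosomes), with bases from GRCm38.p6, which is mm10, and 0 replicated peak ends lay beyond a chromosome. States of starts were tested on simulated peaks, where 8000 of 8000 were recovered. Of 2303 member symbols, 1837 matched the RefSeq promoter table, which was not used further. Everything is descriptive, with no test across starts or genes, as there is 1 group. Python 3.11.15, pandas 2.3.3, numpy 2.4.6 and samtools 1.23.1 were used. The members, gene lists and family patterns were chosen with earlier results of these data known, and 4 family patterns were corrected after their values were seen.

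Named genes are those with the 6 highest mean flank folds (4 among gaps in both own lists), the 4 longest and 4 shortest gaps, the 3 most unequal gaps each way, every list member with a split start and the 2 starts on either side of 500 bp. Printed sequences and genes named as examples of covered starts or of families were chosen after their values were seen. Alternatives were other distances, lists, transcripts, windows and a stricter q. Some genes that the rule names are not reported here.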

Additional observations from a re-analysis of the deposited data

How the results depend on the processing

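A count was held to be close within 1.5 times the reported one, a median within 1 SD between replicates and a share within its Wilson interval. That SD came from the rule applied to each replicate's own list alone, unlike the SDs of gap length and flanks given above. It was 37.5 bp for the gap, 0.0105 for the CpG ratio and 0.125 for the log2 ratio. The medians without either replicate set this SD, so how they were scored is not a separate check. By these unequal tolerances 33 of 48 alternative values stayed close and 15 moved. The farthest count among the close ones was 5765 split starts with all transcripts of protein-coding genes. The median log2 ratio of the flanks stayed positive under each of its alternatives. With 250 bp as the distance, 2280 starts were split, the median gap was 211 bp and the median CpG ratio 0.704, and with 1000 bp that ratio was 0.765. With 1 start per gene 1729 were split. When a start within 25 bp of a peak counted as inside, the CpG ratio was 0.758, and it was 0.931 over 250 bp on either side and 0.981 over the gap itself. Without either replicate, the rule applied to the remaining list gave 4378 to 4709 starts, a median gap of 280 to 333 bp, a CpG ratio of 0.722 to 0.737 and a log2 ratio of the flanks of 0.69 to 0.87. With −log10 p as the strength that ratio was 1.12. The share with the gap in the own list of replicate 1 was 52.6% with 250 bp and 71.0% with 25 bp counted as inside. In the own list of replicate 2 it was 34.6% with 250 bp and 85.2% with 1000 bp. Dropping the 41 replicated peaks with −log10 q under 5 left 3947 split starts. A shorter distance and 1 start per gene admit fewer starts by construction. The CpG ratio over another window and strength by −log10 p are other measures. The cause of the other shifts was not tested. No paired analysis was possible because there is 1 group. A gap in a peak list means that no peak was called there, and how much signal it holds was not analysed here.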
